A study of Mus musculus with 56 samples.

Results

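The livers of 8 DIO-MASH mice dosed with zalfermin plus semaglutide were compared with those of 8 DIO-MASH mice dosed with vehicle, by RNA sequencing and over all genes of the count table. These 16 mice are those of the 56 in the series whose labels name the AMLN diet together with either the combined treatment or the NASH vehicle. DIO-MASH stands for diet-induced obesity with metabolic dysfunction-associated steatohepatitis. All 16 were male C57BL/6J mice that arrived at 5 to 6 weeks of age and ate the AMLN diet, rich in fat, fructose and cholesterol, for 36 weeks before dosing began and throughout it. Both groups had passed a liver biopsy that selected mice with steatosis and fibrosis, and were then dosed under the skin once a day for 8 weeks. In the combination group the drugs were given as separate injections, and the number of vehicle injections is not stated. By the study's methods the combination was zalfermin at 0.05 mg/kg and semaglutide at 3 ug/kg, which were its low doses, whereas the design text that accompanies the counts calls it a combination of the high doses. The methods' doses are used here. The other groups of 8 mice received vehicle on a chow diet or 1 drug alone on the AMLN diet. Zalfermin alone was given at 0.05 mg/kg (low dose) or 0.2 mg/kg (high dose). Semaglutide alone was given at 3 ug/kg (low dose) or at a high dose not compared here. The levels of these groups are given only where named, but all 56 mice entered the gene filter and the shared estimate of spread. Each mouse gave 1 library of bulk liver RNA, so cell types were not separated, and body weight and food intake were not analysed here.

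Zalfermin is a long-acting analog of FGF21, a hormone made largely by the liver that signals through FGF receptors bound to the co-receptor beta-klotho (Klb). Semaglutide is an agonist of the GLP-1 receptor, which lowers food intake and body weight through the brain. In steatohepatitis, fat-laden hepatocytes lie beside recruited macrophages and activated stellate cells, the main makers of scar collagen, while many genes of normal hepatocyte function are expressed at lower levels.

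The reads counted on genes summed to a median of 11979097 in the combination group (range 6850790 to 17810943) and 10919819 in the vehicle group (7393654 to 16434379). Defining hepatocyte genes were abundant in every library, and markers of pancreas and of gut epithelium were near the limit of detection, with summed levels of at most 0.567 and 2.96 CPM (reads scaled to a common library size after TMM normalization) in the 16 mice. These sums cover only the markers with enough reads to be tested, 1 of 5 for pancreas and 2 of 5 for gallbladder and gut epithelium. On the first principal component of the 500 most variable genes, which held 51.68% of the variance of these mice, the combination mice lay at 11.8 ± 4.48 and the vehicle mice at -11.8 ± 2.63 (SD, n = 8 each). The groups did not overlap (exact two-sided permutation p = 0.0001554, the smallest that 8 against 8 mice allow). The sample numbers in the labels form series of neighboring numbers whose meaning is not given. Within the 3 series with mice of both groups, the difference on this component was 22.09, 24.75 and 22.21, beside 23.59 over all 16 mice. Combination mouse 3 lay farthest from the vehicle mice, at 20.93.

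Of 14105 genes tested, 20.9% passed the threshold, an adjusted p under 0.05 in edgeR's quasi-likelihood test with Benjamini-Hochberg adjustment over all genes tested. These differentially expressed genes (DEGs) comprised 1417 that were higher in the combination group (10%) and 1536 that were lower (10.9%). Falls were larger than rises. Among the DEGs, the median log2 fold change was 0.42 for those that rose and -0.74 for those that fell, and 512 fell by more than 1 on the log2 scale while 130 rose by as much. The direction depended on how strongly a gene was expressed. Among genes with a mean of 100 CPM or more, 459 rose and 81 fell, whereas among genes with a mean under 1 CPM, 24 rose and 190 fell. At 1 to 10 CPM 79.8% of the DEGs were lower, and at 10 to 100 CPM 45.1% were lower. The median log2 fold change over all genes tested was -0.026. In 2771 of the 2953 DEGs (93.8%), the difference had the same sign within each of the 3 number series. The DEGs were chosen by their difference in these same mice, which favors such agreement, so this share is a description and not a test.

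**Figure D1:**
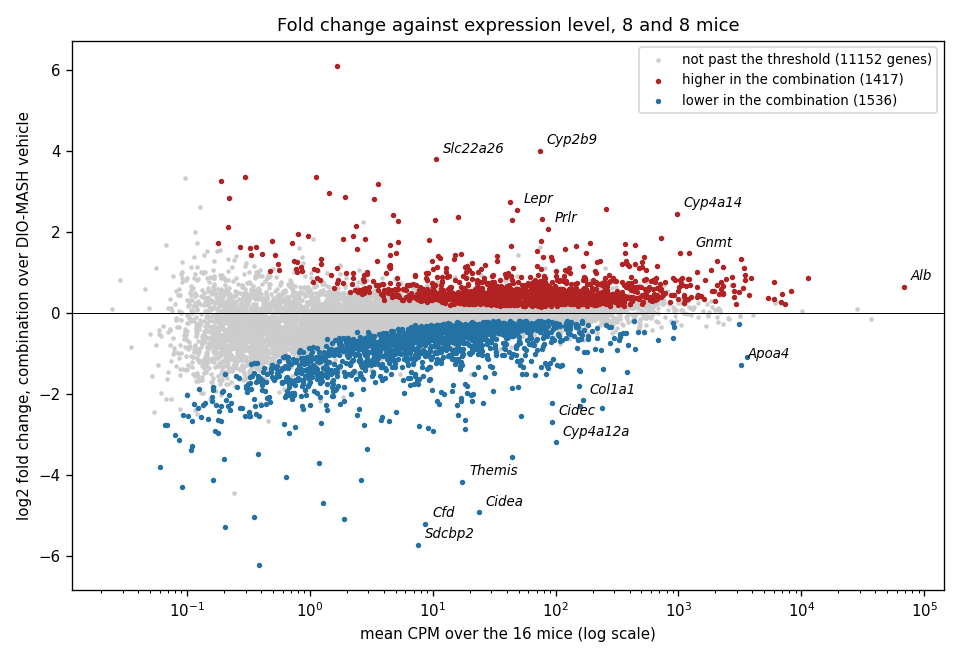
Each point is 1 of the 14105 genes tested, with its mean CPM over the 16 mice on a log scale (horizontal) and its log2 fold change, combination over DIO-MASH vehicle (vertical). The 1417 genes that rose lie mostly at higher expression, and the 1536 that fell reach further from 0 at low and middle expression.

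In the following, levels are given as the lowest, median and highest CPM of the 8 mice of a group, in that order, and log2 fold changes with their standard error (SE). Gene lists were written from general knowledge of the liver, but with earlier results of these data known. A list's counts are therefore a description and not a test. They stand beside the shares of all genes tested that rose (10%) or fell (10.9%). For 3.98% of all genes tested the mice of both groups did not overlap. The lists with the highest shares of rising members were hepatocyte markers (7 of 7 tested), female-biased liver genes (16 of 20), and the urea cycle and amino acid breakdown (29 of 40). Those with the highest shares of falling members, among lists with 10 or more tested members, were the cell cycle (24 of 30), stellate cell markers (8 of 12), and matrix glycoproteins and proteoglycans (28 of 47).

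**Figure D2:**
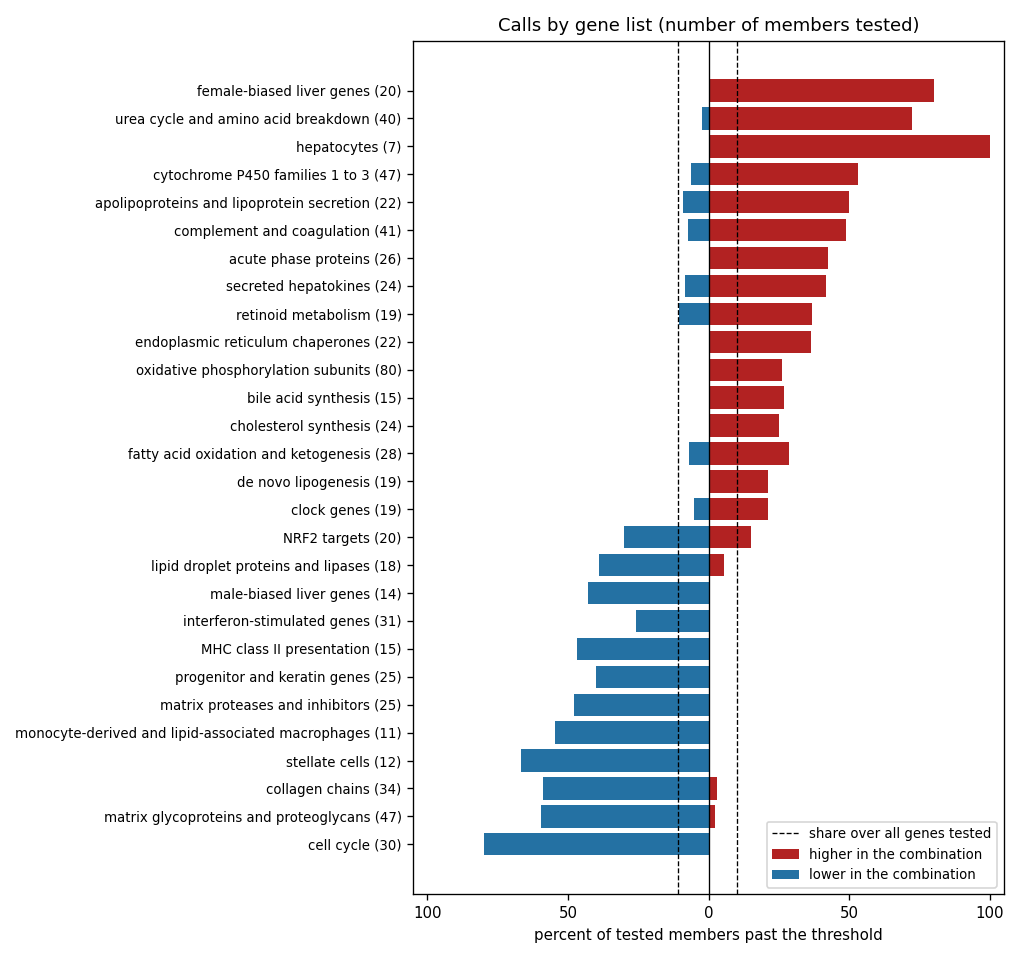
Bars give the percent of tested members of 28 gene lists that were higher (right) or lower (left) in the combination group, with the number tested in parentheses. Dashed lines mark the shares over all genes tested, 10% higher and 10.9% lower, and the bars of female-biased genes and of the cell cycle reach far past them on opposite sides.

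The largest rises included genes whose expression in mouse liver differs between the sexes, although all mice were male. The liver reads the pulsed or steady release of growth hormone, and female-biased genes such as Cyp2b9 are normally held low in males. Of 24 female-biased genes listed, 20 were tested, 16 rose, none fell, and the median log2 fold change was 2.23. The filter needed reads in any 3 of the 56 mice, so genes nearly silent in vehicle mice could enter through the combination mice. Such entry would raise the share that rose and the median, and its extent was not tested. Cyp2b9, a steroid-metabolising P450 enzyme, was at 51.8, 96.7 and 351 CPM in the combination mice and at 0.691, 4.27 and 33.5 CPM in the vehicle mice, without overlap (log2 fold change 4.01 ± 0.78, SE, adjusted p = 0.000142). The organic anion transporter Slc22a26 was at 10.6, 18.3 and 33.7 CPM against 0.582, 1.07 and 2.95 CPM (3.80 ± 0.51, adjusted p = 2.22e-07). In chow-fed males, the medians of Cyp2b9 and Slc22a26 were 4.86 and 6 CPM. For Cyp2b9, every combination mouse lay above the highest chow-fed mouse, which was at 34.8 CPM.

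Cyp2b13, the neighbor of Cyp2b9 on chromosome 7, was at 2.17, 5.30 and 21.5 CPM in the combination group and at 0.235, 0.594 and 1.66 CPM in the vehicle group (log2 fold change 3.20 ± 0.57, adjusted p = 3.70e-05). These genes are near copies of each other, and reads may have been divided between them. Their promoters show how alike they are: of the 250 bases before the start site in RefSeq's GRCm38.p6 annotation, 2 differ, and the last 100 bases are identical. The shared sequence is printed for Cyp2b9 at chr7:26173309-26173408 and is found for Cyp2b13 at chr7:26061395-26061494, both on the plus strand, with no capitals because no position differs.
Cyp2b9: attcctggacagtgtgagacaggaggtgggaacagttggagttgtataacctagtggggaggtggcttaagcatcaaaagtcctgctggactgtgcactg

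Male-biased genes moved the other way. Of 15 listed, 14 were tested, 6 fell, none rose, and the median log2 fold change was -1.06. Cyp4a12a, a fatty acid hydroxylase of male liver that lies at chr4:115299046-115332815 (GRCm38), was at 6.51, 17.8 and 41 CPM in the combination mice and at 62.9, 171 and 376 CPM in the vehicle mice (-3.19 ± 0.40, adjusted p = 4.96e-08). Its neighbor and close paralog Cyp4a12b was at 1.70, 5.26 and 15.8 CPM against 39.9, 82.8 and 129 CPM (-3.55 ± 0.46, adjusted p = 8.80e-08). Neither gene overlapped between the groups, and the chow-fed medians, 173 and 48.5 CPM, lay within the range of the vehicle mice. The selenium-binding protein gene Selenbp2 was at 3.08, 6.80 and 16.5 CPM against 20.2, 25.3 and 73.7 CPM (-2.18 ± 0.45, adjusted p = 0.000292). Mup20, a pheromone-carrying major urinary protein, fell by 1.07 ± 0.27 (adjusted p = 0.00289), and 7 of the 8 combination mice lay below the lowest vehicle mouse. Of all 19 major urinary protein genes tested, which share much sequence, 3 fell and none rose.

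By mouse, the mean log2 CPM of the female-biased genes, relative to the vehicle mean, ran from 1.19 (mouse 5) to 2.71 (mouse 4) in the combination group and from -0.70 to 0.47 in the vehicle group. The male-biased genes ran from -1.85 to -0.30 and from -0.93 to 0.62, and combination mice 5 (-0.30) and 8 (-0.73) lay within the vehicle range for the male-biased genes. Hormone receptor and binding protein genes changed beside them. Prlr, the prolactin receptor, was at 103, 138 and 192 CPM against 12.2, 36.3 and 49.4 CPM (2.09 ± 0.29, adjusted p = 4.72e-07), near the chow-fed median of 151 CPM. Lepr, the leptin receptor, was at 29.1, 85.3 and 144 CPM against 5.68, 14.3 and 24.3 CPM (2.56 ± 0.33, adjusted p = 1.22e-07). Unlike Prlr, Lepr had a chow-fed median of 3.27 CPM, below all mice of both groups.

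Within the growth hormone and IGF axis, 4 of 16 tested genes rose and 1 fell. The growth hormone receptor gene Ghr was at 488, 560 and 668 CPM against 426, 504 and 631 CPM, with overlapping groups (0.16 ± 0.12, adjusted p = 0.338). Igf1, the main growth hormone target, rose by 0.41 ± 0.12 (adjusted p = 0.00983). Igfbp2, an IGF-binding protein, was at 554, 765 and 858 CPM against 200, 257 and 496 CPM (1.27 ± 0.16, adjusted p = 3.75e-08). Igfbp3, which carries most IGF1 in blood, was at 5.47, 11.1 and 18.9 CPM against 24.1, 32.9 and 38.8 CPM (-1.50 ± 0.19, adjusted p = 8.80e-08). The groups overlapped for neither binding protein.

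Other genes among the 12 largest rises were of several kinds. Avpr1a, the vasopressin receptor of hepatocytes, was at 18.7, 23.1 and 48.1 CPM against 2.20, 5.34 and 7.41 CPM (2.37 ± 0.28, adjusted p = 2.22e-08). Rdh16f2, a retinol and steroid dehydrogenase, was at 87.4, 126 and 183 CPM against 15.6, 25.4 and 37.9 CPM (2.32 ± 0.27, adjusted p = 1.06e-08). The groups overlapped for neither, and the chow-fed medians were 19.6 and 213 CPM. Nrbp2, a pseudokinase whose rise was among the 5 with the smallest p, was at 21.7, 25.6 and 31.7 CPM against 9.52, 12 and 13.8 CPM (1.17 ± 0.12, adjusted p = 1.71e-10).

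**Figure D3:**
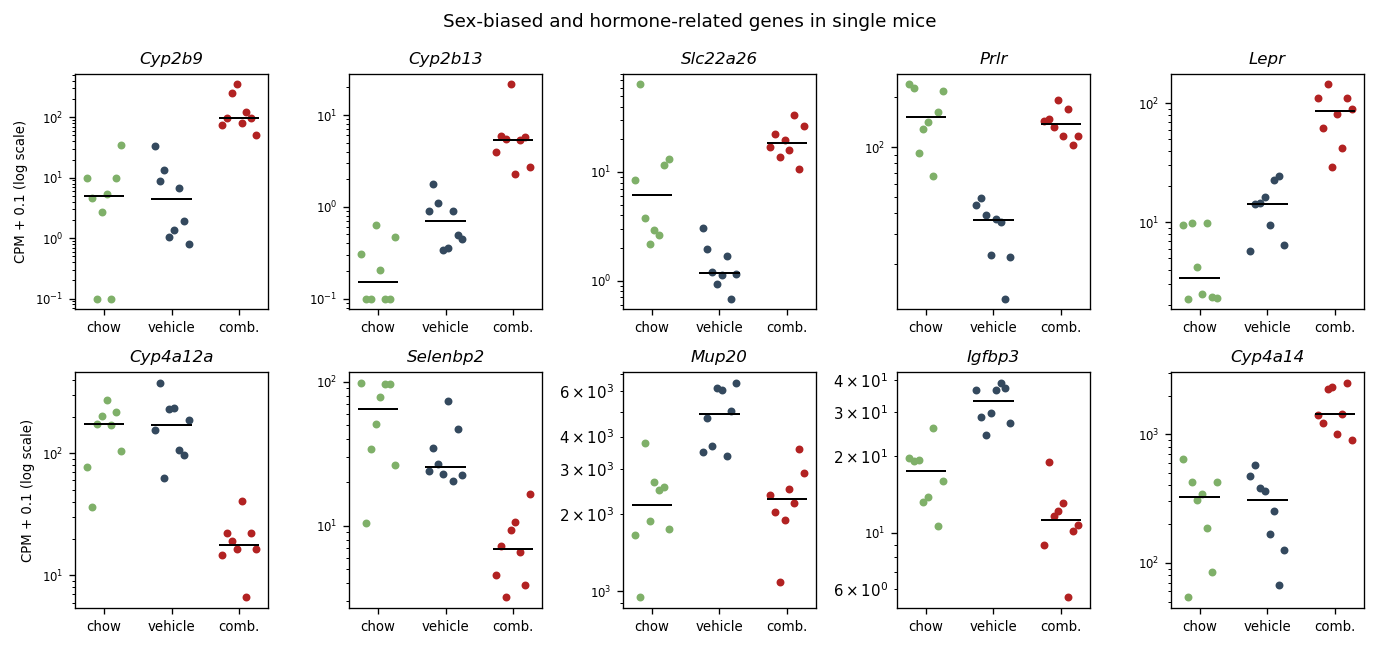
Each point is 1 mouse, with CPM plus 0.1 on a log scale, for chow-fed vehicle, DIO-MASH vehicle and combination (comb.) mice, 8 of each, and bars mark medians. Cyp2b9, Cyp2b13, Slc22a26, Prlr, Lepr and Cyp4a14 are higher, and Cyp4a12a, Selenbp2, Mup20 and Igfbp3 lower, in the combination than in the DIO-MASH vehicle mice.

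Genes of FGF receptors and of the GLP-1 receptor family were examined next. Of 9 listed, Glp1r, which encodes the receptor of semaglutide, and Gipr had too few reads to be tested. Of the 7 tested genes, 2 rose, Klb and Fgfr4, and none fell. The study names FGFR1, FGFR2 and FGFR3, together with beta-klotho, as the receptors of FGF21. Klb was at 29.3, 39.4 and 58.3 CPM in the combination mice and 15.2, 26.1 and 34.9 CPM in the vehicle mice, which overlapped (0.68 ± 0.14, adjusted p = 0.000503). Fgfr4, the main FGF receptor of hepatocytes, was at 36.1, 45.2 and 49.2 CPM against 22.6, 26.1 and 34.5 CPM, without overlap (0.67 ± 0.12, adjusted p = 4.59e-05). The mouse's own Fgf21 gene was at 1.69, 2.93 and 3.83 CPM against 1.94, 2.78 and 6.33 CPM and did not pass the threshold (-0.30 ± 0.38, adjusted p = 0.602). Among 14 feedback genes of ERK, the kinase that FGF receptors activate, the phosphatase gene Dusp5 fell by 0.98 ± 0.28 (adjusted p = 0.00782) and Spry1, an inhibitor of receptor signalling, by 0.63 ± 0.19 (adjusted p = 0.0150), and 1 other gene rose, which did not hold when any of 9 mice was left out.

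Genes of lipid droplets fell in part. Of 18 tested lipid droplet and lipase genes, 7 fell and 1 rose, with a median log2 fold change of -0.27. None rose without vehicle mouse 3, 4, 5, 6 or 7 or combination mouse 4, 5 or 6. Cidea, a protein that enlarges lipid droplets and is typical of brown fat, was at 0.130, 1.04 and 5.27 CPM in the combination mice and at 25.3, 47.2 and 67.0 CPM in the vehicle mice (-4.92 ± 0.47, adjusted p = 4.11e-11). Its relative Cidec was at 8.79, 23.7 and 44.5 CPM against 96.0, 166 and 218 CPM (-2.69 ± 0.44, adjusted p = 7.95e-06). Plin4, which coats droplets, was at 1.56, 13.3 and 22.3 CPM against 35.2, 46.9 and 79.2 CPM (-1.93 ± 0.39, adjusted p = 0.000278). None of these genes overlapped between the groups, and the chow-fed medians were 0.147, 3.87 and 6.06 CPM. Plin2, the main droplet coat of hepatocytes, fell by 0.67 ± 0.15 (adjusted p = 0.000996). The lipase gene Pnpla2 was at 40.1, 94.5 and 125 CPM against 82.8, 110 and 160 CPM (-0.32 ± 0.17, adjusted p = 0.165).

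Several genes best known from adipocytes followed the droplet genes. Cfd, the serum protease adipsin, was at 0, 0.195 and 1.86 CPM against 9.82, 12.6 and 28.6 CPM (-5.20 ± 0.70, adjusted p = 1.72e-07). Fabp4, a fatty acid carrier of fat cells and macrophages, was at 4.70, 8.87 and 10.8 CPM against 17.5, 29.8 and 46.8 CPM (-1.80 ± 0.24, adjusted p = 1.68e-07). Aqp7, a glycerol channel, was at 0, 0.0725 and 0.455 CPM against 0.518, 2.31 and 4.72 CPM (-3.69 ± 0.70, adjusted p = 9.55e-05). The groups overlapped for none of them. The other 4 adipocyte markers, Adipoq, Lep, Retn and Plin1, had too few reads to be tested. Of 23 tested genes of fatty acid uptake and triglyceride synthesis 3 rose and 3 fell, with a median of 0.035, and 1 rose without combination mouse 1 or 3. Pparg, the nuclear receptor that drives fat storage genes, was at 12.3, 18.6 and 25.3 CPM against 22.9, 27.2 and 34.7 CPM (-0.64 ± 0.16, adjusted p = 0.00286). Mogat1, a triglyceride synthesis enzyme, fell by 1.77 ± 0.26 (adjusted p = 1.59e-06). The fatty acid transporter gene Cd36 was at 194, 267 and 379 CPM against 273, 367 and 413 CPM and missed the threshold (-0.36 ± 0.14, adjusted p = 0.0640), which it passed in a fit of only these groups (adjusted p = 0.0428) and without vehicle mouse 7 (0.0433), combination mouse 4 (0.0258) or low-dose semaglutide mouse 6 (0.0468).

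No gene listed for making fatty acids from sugar passed the threshold as lower. Of 19 tested de novo lipogenesis genes 4 rose and none fell, and the median log2 fold change was 0.32. Their summed level overlapped, at 39900 to 65800 CPM in the combination mice (median 41700) and 29000 to 69200 CPM in the vehicle mice (median 48600). Mlxipl, which encodes the carbohydrate sensor ChREBP, was at 55.1, 84.8 and 106 CPM against 42.4, 49.1 and 64.4 CPM (0.69 ± 0.15, adjusted p = 0.000981). Fads1, a desaturase of polyunsaturated fatty acids, rose by 0.44 ± 0.13 (adjusted p = 0.0118). Fasn, the fatty acid synthase gene, varied widely, at 895, 3060 and 7870 CPM against 787, 2350 and 4480 CPM (0.53 ± 0.35, adjusted p = 0.289). Neither Srebf1 (0.25 ± 0.25, adjusted p = 0.513) nor the desaturase gene Scd1 (-0.13 ± 0.18, adjusted p = 0.650) passed the threshold, and their groups overlapped.

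Fatty acid oxidation genes split. Of 28 tested, 8 rose and 2 fell, the count of falls being 1 without any of 7 mice, and the median was 0.03. The largest rises were those of microsomal omega-oxidation enzymes. Cyp4a14 was at 902, 1430 and 2500 CPM against 67.7, 307 and 580 CPM (2.45 ± 0.35, adjusted p = 6.74e-07), and Cyp4a10 at 514, 604 and 1600 CPM against 122, 270 and 499 CPM (1.39 ± 0.25, adjusted p = 4.18e-05). Both are near relatives of Cyp4a12a, and neither overlapped between the groups. In contrast, Ppara, the receptor known to induce them, was at 50.4, 159 and 172 CPM against 73.0, 165 and 217 CPM (-0.17 ± 0.19, adjusted p = 0.554). Cpt1a, the entry enzyme of mitochondrial oxidation, was at 333, 716 and 736 CPM against 567, 706 and 1280 CPM (-0.33 ± 0.14, adjusted p = 0.0730), a value that passed the threshold with the number series as a covariate (-0.41, adjusted p = 0.0185) and without vehicle mouse 8 (-0.38, adjusted p = 0.0424).

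Cholesterol, bile acid and lipoprotein genes rose in part. Of 24 tested cholesterol synthesis genes 6 rose and none fell, with a median of 0.38. Pmvk, phosphomevalonate kinase, rose by 0.94 ± 0.23 (adjusted p = 0.00217), the sterol reductase gene Tm7sf2 by 0.81 ± 0.19 (adjusted p = 0.00175), and the sterol isomerase gene Ebp by 0.62 ± 0.13 (adjusted p = 0.000246). Of 11 cholesterol export and storage genes 1 rose and 2 fell, counts that ran from 1 to 3 in either direction when single mice were left out. Scarb1, the HDL receptor gene, rose by 0.38 ± 0.10 (adjusted p = 0.00297).

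Of 15 tested bile acid synthesis genes 4 rose and none fell. Cyp39a1, a hydroxylase of the alternative bile acid pathway at chr17:43667425-43751431 (GRCm38), had the smallest p of all genes that rose. It was at 45.5, 69.5 and 78.4 CPM in the combination mice and 16.1, 21.3 and 27.6 CPM in the vehicle mice (1.66 ± 0.14, adjusted p = 5.04e-12), with a chow-fed median of 67.8 CPM. Akr1d1, the steroid reductase of the pathway, was at 201, 246 and 411 CPM against 57.6, 92.0 and 132 CPM (1.49 ± 0.17, adjusted p = 1.29e-08). Slc27a5, which activates bile acids for conjugation, rose by 0.86 ± 0.11 (adjusted p = 1.51e-07) and Cyp27a1 by 0.57 ± 0.09 (adjusted p = 7.06e-06). All of these were free of overlap. The rate-limiting enzyme gene Cyp7a1 was at 57.7, 142 and 225 CPM against 69.8, 158 and 262 CPM (-0.21 ± 0.35, adjusted p = 0.698), and Cyp8b1, which sets the share of cholic acid, did not pass either (-0.17 ± 0.28, adjusted p = 0.699). Of 15 bile acid and organic ion transporter genes 5 rose and 1 fell, with a median of 0.001. The bile acid uptake transporter gene Slc10a1 was at 577, 705 and 787 CPM against 243, 321 and 360 CPM (1.15 ± 0.14, adjusted p = 1.75e-08). Slco1a4, another uptake transporter, rose by 1.40 ± 0.22 (adjusted p = 4.31e-06).

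Among 22 tested apolipoprotein and lipoprotein secretion genes, 11 rose and 2 fell, with a median of 0.42. Apom, which carries sphingosine-1-phosphate on HDL, was at 154, 164 and 189 CPM against 72.9, 77.5 and 99.8 CPM (1.04 ± 0.12, adjusted p = 9.21e-09). Tm6sf2, needed to load VLDL with lipid, rose by 1.12 ± 0.17 (adjusted p = 1.57e-06), and Lcat, which esterifies plasma cholesterol, by 0.90 ± 0.11 (adjusted p = 6.21e-08). Apoa1, the main HDL protein, rose by 0.54 ± 0.12 (adjusted p = 0.000893). Against this direction, Apoa4, a lipoprotein protein induced in fatty liver, was at 807, 1730 and 3170 CPM against 3510, 4470 and 6150 CPM (-1.27 ± 0.26, adjusted p = 0.000314), and the chow-fed median was 314 CPM.

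Genes of amino acid breakdown rose together. Of 40 tested, 29 rose and 1 fell, and the median log2 fold change was 0.64, with 25 to 31 rising when single mice were left out. Cps1, the first enzyme of the urea cycle, was at 3230, 4440 and 6860 CPM against 1470, 1720 and 2650 CPM (1.33 ± 0.20, adjusted p = 1.75e-06). Gnmt, which disposes of excess methyl groups, was at 1510, 1780 and 2280 CPM against 518, 631 and 873 CPM (1.48 ± 0.18, adjusted p = 4.87e-08). Hpd, of tyrosine breakdown, was at 2510, 2640 and 4360 CPM against 1080, 1190 and 1350 CPM (1.29 ± 0.17, adjusted p = 1.37e-07). The groups overlapped for none of these, and the chow-fed medians were 4900, 3450 and 3080 CPM. The urea cycle genes Ass1 and Arg1 rose by 1.01 ± 0.17 (adjusted p = 1.18e-05) and 0.78 ± 0.15 (adjusted p = 9.84e-05), and the liver glutaminase gene Gls2 by 1.27 ± 0.23 (adjusted p = 3.98e-05). In the mean of the list relative to the vehicle mean, every combination mouse (0.36 to 0.86 on the log2 scale, mouse 2 the lowest) lay above every vehicle mouse (-0.15 to 0.20).

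Glucose genes passed the threshold about as often as all genes. Of 26 tested 4 rose and 1 fell (19.2%, beside 20.9% of all genes). The gluconeogenic enzyme gene Fbp1 rose by 0.39 ± 0.09 (adjusted p = 0.000985), and Ppp1r3c, which targets a phosphatase to glycogen, by 1.02 ± 0.29 (adjusted p = 0.00901). Hk2, a hexokinase scarce in healthy hepatocytes, was at 0.771, 3.75 and 5.13 CPM against 5.90, 10.6 and 16.5 CPM (-1.54 ± 0.28, adjusted p = 6.65e-05). The gluconeogenic genes Pck1 (0.47 ± 0.27, adjusted p = 0.225) and G6pc (0.28 ± 0.38, adjusted p = 0.630) did not pass.

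Hepatocyte markers rose. All 7 tested hepatocyte markers rose, with a median of 0.54, and their summed level was 85300 to 134000 CPM in the combination mice and 61400 to 84100 CPM in the vehicle mice. In bulk liver RNA, more hepatocyte RNA per cell and a larger share of hepatocytes cannot be told apart, and the same holds in reverse for every marker of other cells below. Alb, albumin, was at 61200, 84200 and 108000 CPM against 43200, 52500 and 64700 CPM (0.66 ± 0.14, adjusted p = 0.000323). Of 22 hepatocyte transcription factor genes 2 rose (9.09%, beside 10% of all genes) and none fell. Hnf4a, the central hepatocyte transcription factor, was at 606, 763 and 921 CPM against 349, 442 and 547 CPM, without overlap (0.80 ± 0.14, adjusted p = 1.87e-05). Nr5a2, another hepatocyte nuclear receptor, rose by 0.49 ± 0.13 (adjusted p = 0.00352). Of 20 pericentral genes 6 rose and of 15 periportal genes 5 rose, and none of either zone fell.

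Of 41 tested complement and coagulation genes, 20 rose and 3 fell. C3, the central complement protein, was at 10900, 13500 and 21900 CPM against 5720, 8220 and 10000 CPM (0.86 ± 0.17, adjusted p = 0.000141). F7, which starts clotting, was at 106, 121 and 219 CPM against 45.3, 52.8 and 60.4 CPM (1.32 ± 0.14, adjusted p = 1.66e-09). C6, a member of the complement pore that is also male-biased in mouse liver, fell by 0.89 ± 0.19 (adjusted p = 0.000497), and Cfd, described above, was another of the falls.

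Of 26 acute phase genes, which the liver induces in inflammation, 11 rose and none fell, with a median of 0.80. Saa3, a serum amyloid gene, was at 7.19, 20.1 and 44.5 CPM against 4.56, 7.52 and 16.2 CPM (1.33 ± 0.30, adjusted p = 0.00104). Serpina3m, a protease inhibitor, rose by 1.21 ± 0.16 (adjusted p = 8.80e-08), Itih4 by 1.12 ± 0.18 (adjusted p = 1.03e-05), and the fibrinogen gene Fga by 0.88 ± 0.17 (adjusted p = 0.000163). Saa1, the strongest acute phase gene of mouse liver, was at 35.3, 139 and 1520 CPM against 113, 205 and 415 CPM (0.62 ± 0.71, adjusted p = 0.565). The high Saa1 value belonged to combination mouse 6, and without it the log2 fold change was -0.33. The mean of the list was also highest in mouse 6 (1.65) and ran from -0.36 to 1.03 in the other combination mice, against -0.29 to 0.26 in the vehicle mice.

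Of 19 iron handling genes 4 rose and none fell. Hamp, the iron hormone hepcidin, was at 212, 451 and 1270 CPM against 45.4, 166 and 398 CPM (1.48 ± 0.47, adjusted p = 0.0181), but missed the threshold without combination mouse 3 (1.16, adjusted p = 0.0767). Tfr2, an iron sensor, rose by 0.66 ± 0.10 (adjusted p = 1.81e-06). Of 24 hepatokine genes 10 rose and 2 fell. Enho, which encodes adropin, was at 3.29, 8.26 and 12.4 CPM against 0.965, 1.99 and 4.85 CPM (1.75 ± 0.31, adjusted p = 4.07e-05), with a chow-fed median of 26.7 CPM. Ahsg, fetuin-A, rose by 0.77 ± 0.11 (adjusted p = 1.64e-06). Both falls were of activin subunits, Inhbb by 1.01 ± 0.25 (adjusted p = 0.00239) and Inhbe by 0.85 ± 0.23 (adjusted p = 0.00607).

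Drug-metabolising enzymes rose more often than they fell. Of 47 tested cytochrome P450 genes of families 1 to 3, 25 rose and 3 fell, with a median of 0.56. Cyp2c29, an epoxygenase, was at 861, 1080 and 1440 CPM against 186, 241 and 654 CPM (1.86 ± 0.28, adjusted p = 2.77e-06). Its close paralog Cyp2c37 was at 253, 392 and 935 CPM against 26.4, 50.8 and 227 CPM (2.58 ± 0.37, adjusted p = 5.97e-07). Neither overlapped, and the chow-fed medians, 1430 and 496 CPM, were above the combination's. Cyp1a2 rose by 0.72 ± 0.22 (adjusted p = 0.0126), and Nr1i3, the xenobiotic receptor CAR, by 0.68 ± 0.17 (adjusted p = 0.00273). Ces1c, a carboxylesterase, was at 2710, 3150 and 3590 CPM against 1340, 1420 and 1490 CPM, without overlap (1.15 ± 0.11, adjusted p = 4.11e-11). Cyp21a1, the steroid 21-hydroxylase of the adrenal gland, went the other way, at 0, 0 and 0.558 CPM against 2.10, 2.68 and 7.27 CPM (-5.08 ± 0.68, adjusted p = 1.79e-07).

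Of 52 tested conjugating enzymes, 17 rose and 5 fell, the falls being 3 without vehicle mouse 2. The glutathione transferase genes Gsta1 and Gstm3 were among the falls, at -2.36 ± 0.66 (adjusted p = 0.00718) and -1.42 ± 0.33 (adjusted p = 0.00156). Of 20 targets of NRF2, a transcription factor of the oxidative stress response, 6 fell and 3 rose. The rises were 1 without vehicle mouse 6 or 7 or combination mouse 6. Cbr3, a carbonyl reductase, was at 1.16, 1.88 and 2.60 CPM against 4.40, 5.83 and 6.47 CPM (-1.56 ± 0.34, adjusted p = 0.000659), and Srxn1, sulfiredoxin, fell by 0.90 ± 0.17 (adjusted p = 6.88e-05). Cbr1, a related reductase gene, rose by 0.76 ± 0.12 (adjusted p = 5.69e-06), and the common marker gene Nqo1 did not pass (-0.16 ± 0.20, adjusted p = 0.588).

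Of 19 tested retinoid metabolism genes 7 rose and 2 fell. Retsat, a retinol saturase, was at 643, 809 and 1510 CPM against 289, 430 and 467 CPM (1.16 ± 0.18, adjusted p = 3.21e-06). Rbp4, which carries retinol in blood, rose by 0.63 ± 0.10 (adjusted p = 2.03e-06). Cyp26a1, which degrades retinoic acid and is induced by it, was at 6.67, 11.2 and 62.5 CPM against 1.52, 2.48 and 9.41 CPM (2.31 ± 0.54, adjusted p = 0.00156), its highest value in combination mouse 6.

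Counts of stress genes shifted with single mice. Of 22 endoplasmic reticulum chaperone and quality control genes 8 rose and none fell, but the rises were 3 without vehicle mouse 6, 5 without vehicle mouse 7 and 4 without combination mouse 3. Selenos and Edem1, of the degradation of misfolded proteins, rose by 0.47 ± 0.10 (adjusted p = 0.000618) and 0.45 ± 0.12 (adjusted p = 0.00589). Atf4, a transcription factor of the amino acid response, was at 42.4, 53.7 and 75.6 CPM against 29.9, 34.8 and 56.8 CPM (0.61 ± 0.13, adjusted p = 0.000413). Of its 22 listed targets (Atf4 itself included), 5 fell and 2 rose, with 3 falling without vehicle mouse 4 or combination mouse 1 or 3. The targets Psat1, of serine synthesis, and Mthfd2, of mitochondrial folate metabolism, fell by 1.34 ± 0.35 (adjusted p = 0.00414) and 1.04 ± 0.29 (adjusted p = 0.00830). Of 15 cytosolic heat shock genes 2 fell and 1 rose, with 2 rising without vehicle mouse 7 and 1 falling without combination mouse 1 or 4. Hspa1b, one of them, fell by 1.33 ± 0.33 (adjusted p = 0.00295).

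Nuclear genes of oxidative phosphorylation rose by little: 21 of 80 rose and none fell, with a median of 0.18, and 12 or 13 rose without combination mouse 5 or 6. Sdhd, a subunit of complex II, was at 202, 242 and 260 CPM against 160, 177 and 197 CPM (0.45 ± 0.06, adjusted p = 7.37e-07). Atp5g1, of ATP synthase, rose by 0.50 ± 0.11 (adjusted p = 0.000517). Of 76 cytosolic ribosomal protein genes 10 rose and none fell, a share near that of all genes, and this count ranged from 5 without combination mouse 2 to 17 without vehicle mouse 7.

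Genes of the circadian clock were unequal within the combination group. Of 19 tested 4 rose and 1 fell. Arntl, the clock activator BMAL1, was at 14.8, 17.6 and 24.4 CPM in combination mice 4, 5 and 6, at 1.04 to 4.66 CPM in the other 5, and at 0.480 to 2.93 CPM in the vehicle mice (2.27 ± 0.48, adjusted p = 0.000461). The clock repressor gene Cry1 was at 37, 44.2 and 49.1 CPM in the same mice and at 7.02 to 11.5 CPM in the other 5, within the vehicle range of 3.63 to 16.5 CPM (1.44 ± 0.33, adjusted p = 0.00102). Outside these 3 mice, both genes lay in or near the vehicle range. The same mice had the highest levels in the group of Nfil3, a repressor of clock output, of Chka, choline kinase, and of the nuclear receptor gene Ppard. Nfil3 rose by 1.08 ± 0.26 (adjusted p = 0.00164), Chka by 0.93 ± 0.25 (adjusted p = 0.00503), and Ppard by 1.01 ± 0.27 (adjusted p = 0.00526), the last missing the threshold without combination mouse 6 (0.53, adjusted p = 0.0878). Cdkn1a, a cell cycle inhibitor, was at 45.1, 38.8 and 102 CPM in these mice and had a median of 14.3 CPM over the group, beside 23.3 CPM in the vehicle mice (-0.04 ± 0.46, adjusted p = 0.960). Nr1d1, the clock repressor REV-ERB alpha, was at 7.35 to 136 CPM and did not pass (-0.25 ± 0.43, adjusted p = 0.723). Mice 5 and 6 were the only combination mice of their number series, and mouse 4 belonged to another. The hour at which each mouse was killed is not given in the sources used here, and its part in these values was not tested.

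**Figure D4:**
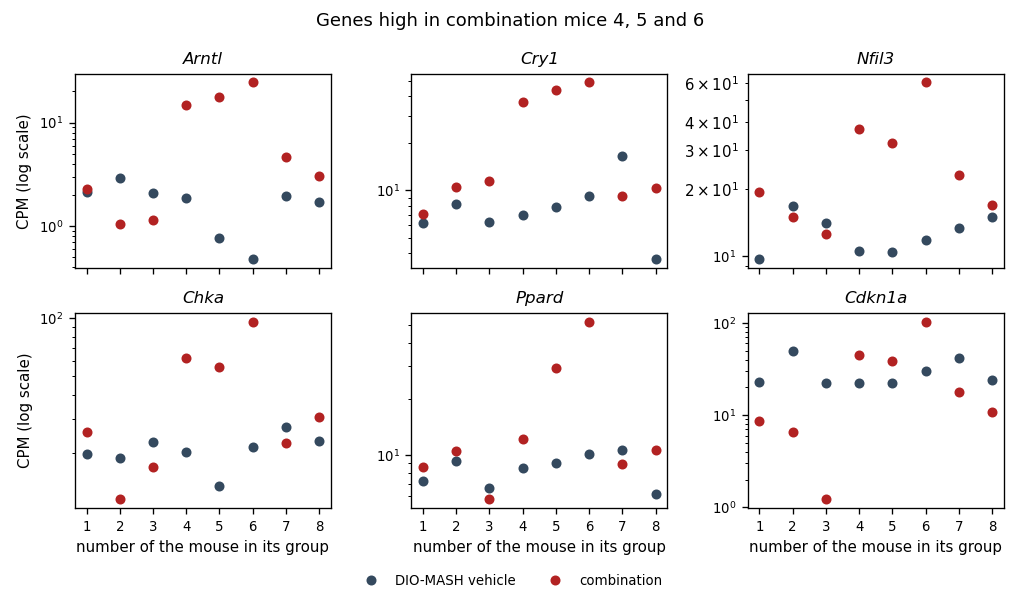
Points show the CPM (log scale) of 6 genes in each DIO-MASH vehicle and combination mouse. Mice are numbered 1 to 8 within a group in the order of their sample numbers, which pairs no mice between groups. Combination mice 4, 5 and 6 stand above the other combination mice in Arntl, Cry1, Nfil3, Chka and Cdkn1a, and mice 5 and 6 most clearly in Ppard.

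Extracellular matrix genes fell broadly. Of 34 tested collagen chain genes 20 fell and 1 rose, with a median log2 fold change of -1.23. Col3a1, a fibrillar collagen of scar tissue, was at 38.6, 76.1 and 158 CPM in the combination mice and 256, 417 and 507 CPM in the vehicle mice (-2.33 ± 0.32, adjusted p = 2.93e-07). Col1a1, at chr11:94936224-94953042 (GRCm38), was at 11, 57.3 and 119 CPM against 123, 284 and 344 CPM (-2.15 ± 0.38, adjusted p = 3.96e-05). Col1a2 (-1.80 ± 0.33, adjusted p = 6.42e-05) and Col5a2 (-1.91 ± 0.26, adjusted p = 3.16e-07) also fell, and no collagen named here overlapped between the groups. The chow-fed medians of Col3a1 and Col1a1, 25.6 and 10.2 CPM, lay below every combination mouse. In the mean of the collagen list, combination mouse 3 was lowest (-1.52) and mouse 2 highest (-0.51), and the vehicle mice lay between -0.42 and 0.41.

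Of 25 collagen processing genes 13 fell and 1 rose, of 47 glycoproteins and proteoglycans 28 fell and 1 rose, and of 25 matrix proteases and inhibitors 12 fell and none rose. Loxl2, a collagen cross-linking enzyme, was at 1.54, 3.13 and 5.77 CPM against 8.26, 11.2 and 14 CPM (-1.74 ± 0.25, adjusted p = 5.37e-07). Postn, periostin, a matrix protein of injured tissue, was at 1.82, 4.36 and 7.02 CPM against 9.76, 19.6 and 24 CPM (-1.95 ± 0.26, adjusted p = 1.51e-07). Elastin (Eln, -1.90 ± 0.35, adjusted p = 7.02e-05) and tenascin C (Tnc, -1.97 ± 0.32, adjusted p = 7.78e-06) also fell without overlap. Timp1, an inhibitor of matrix proteases, fell by 1.59 ± 0.35 (adjusted p = 0.000750), the collagenase gene Mmp13 by 2.52 ± 0.46 (adjusted p = 5.33e-05), and Plat, a plasminogen activator, by 1.66 ± 0.40 (adjusted p = 0.00210). The exception among the glycoproteins was fibronectin, Fn1, which hepatocytes also secrete into plasma and which rose by 0.60 ± 0.12 (adjusted p = 0.000203).

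Markers of stellate cells fell in part. Of 12 tested 8 fell and none rose, with a median of -0.66. Colec11, a lectin of stellate cells, was at 30.5, 37.9 and 50 CPM against 64.0, 68.6 and 82.3 CPM (-0.87 ± 0.15, adjusted p = 1.45e-05), and Rgs5, a regulator of pericyte signalling, was at 15.8, 26 and 37 CPM against 39.5, 47.8 and 73.2 CPM (-1.02 ± 0.23, adjusted p = 0.000763). The activation marker Acta2, smooth muscle actin, was at 4.54, 4.86 and 8.74 CPM against 5.47, 6.97 and 9.25 CPM and did not pass (-0.36 ± 0.38, adjusted p = 0.521). Of 27 TGF-beta and PDGF signalling genes 7 fell and 1 rose, among them Tgfbr2, a TGF-beta receptor, by 0.88 ± 0.16 (adjusted p = 5.07e-05) and the ligand Tgfb1 by 0.56 ± 0.17 (adjusted p = 0.0131).

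The summed level of the stellate cell list was 379 to 640 CPM in the combination mice and 675 to 895 CPM in the vehicle mice. Genes that damaged or progenitor-like liver cells express also fell, 10 of 25 tested with none rising. Anxa2, an annexin induced in damaged hepatocytes, was at 18.3, 32.5 and 50.4 CPM against 121, 138 and 238 CPM (-2.21 ± 0.37, adjusted p = 1.32e-05). S100a11 was at 2.93, 7.83 and 13.7 CPM against 19.9, 33.7 and 43 CPM (-2.02 ± 0.28, adjusted p = 3.93e-07). Afp, the fetal counterpart of albumin, fell by 1.63 ± 0.43 (adjusted p = 0.00491).

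Several of the largest falls belonged to genes outside these lists. Sdcbp2, a syntenin adaptor, was at 0, 0.138 and 0.682 CPM against 3.22, 15.8 and 21.5 CPM (-5.73 ± 0.86, adjusted p = 1.81e-06). Themis, best known from T cell development, was at 0.540, 1.53 and 3.16 CPM against 19.8, 32 and 47.9 CPM (-4.16 ± 0.42, adjusted p = 1.71e-10). The 10 markers of T and NK cells summed to 3.39 to 24.6 CPM in the combination mice and 5.30 to 26 CPM in the vehicle mice, and none of them passed the threshold. Sprr1a, a cornified envelope protein, fell by 4.13 ± 0.65 (adjusted p = 5.17e-06), Insyn1 by 3.36 ± 0.45 (adjusted p = 1.72e-07), Cntnap1 by 2.91 ± 0.33 (adjusted p = 6.63e-09) and Fam83a by 2.86 ± 0.40 (adjusted p = 3.75e-07). Among the 5 falls with the smallest p were Ermp1, a metalloprotease of the endoplasmic reticulum (35.1, 49.5 and 57.1 CPM against 87.1, 111 and 137 CPM, -1.22 ± 0.12, adjusted p = 1.71e-10), and Gnai1, an inhibitory G protein subunit (-2.18 ± 0.23, adjusted p = 1.06e-09). None of these genes overlapped between the groups.

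Genes of the cell cycle fell. Of 30 genes, all tested, 24 fell and none rose, with a median log2 fold change of -1.36 and 23 to 25 falling when single mice were left out. Mki67, a marker of dividing cells, was at 1.31, 3.93 and 9.61 CPM against 7.76, 13.7 and 22.2 CPM (-1.63 ± 0.33, adjusted p = 0.000323). Cdc20, an activator of the anaphase-promoting complex, was at 0.154, 0.723 and 1.03 CPM against 1.77, 3.03 and 4.49 CPM (-2.16 ± 0.34, adjusted p = 5.17e-06). Ccnb2, a mitotic cyclin, was at 0, 0.549 and 1.36 CPM against 1.55, 2.71 and 3.59 CPM (-1.88 ± 0.49, adjusted p = 0.00407). Ube2c (-1.79 ± 0.39, adjusted p = 0.000630) and the kinase gene Plk1 (-1.73 ± 0.42, adjusted p = 0.00186) also fell. Cdc20 and Ccnb2 did not overlap between the groups, although at these levels a library holds few reads of each. By the mean of the list, every combination mouse (-1.84 to -0.53) lay below every vehicle mouse (-0.31 to 0.26). The counts do not tell which cells of the liver divided.

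Mitotic genes are known to share promoter elements, the CHR (TTTGAA) and CCAAT boxes. The 100 bases before the start sites of Cdc20, Ccnb2 and Ube2c are shown because these genes of the list fell together. They come from RefSeq on GRCm38.p6, 5′ to 3′ on the strand of the gene, with capitals marking CCAAT and TTTGAA read on either strand. Cdc20 is at chr4:118437344-118437443 (minus strand), Ccnb2 at chr9:70421555-70421654 (minus strand) and Ube2c at chr2:164769829-164769928 (plus strand).
Cdc20: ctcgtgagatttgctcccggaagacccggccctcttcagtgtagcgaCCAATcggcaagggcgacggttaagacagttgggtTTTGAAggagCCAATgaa
Ccnb2: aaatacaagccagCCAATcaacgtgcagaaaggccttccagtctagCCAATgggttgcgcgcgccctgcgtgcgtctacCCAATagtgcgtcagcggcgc
Ube2c: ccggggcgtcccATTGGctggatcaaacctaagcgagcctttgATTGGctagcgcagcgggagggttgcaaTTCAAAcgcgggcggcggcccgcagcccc

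The Cdc20 and Ube2c windows each hold 1 TTTGAA and 2 CCAAT boxes, and the Ccnb2 window holds 3 CCAAT boxes. Of the 24 genes of the cell cycle list that fell, 19 matched a promoter entry. In the 250 bases before the start site, 16 of the 19 (84.2%) held CCAAT on either strand, 8 (42.1%) held TTTGAA, and 8 (42.1%) held both. Among all 32851 promoter windows of this length the shares were 33.8%, 16% and 5.55%, and counted by gene, with a match in any of its windows, they were 37.5%, 18.3% and 6.45%. These motif counts describe sequence only.

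Immune genes fell in part. Of 11 tested markers of monocyte-derived and lipid-associated macrophages, 6 fell and none rose, with a median of -0.98. Mmp12, macrophage elastase, was at 3.47, 12.2 and 27.5 CPM against 18.2, 32.1 and 57.7 CPM (-1.33 ± 0.35, adjusted p = 0.00465). Itgax, which encodes CD11c, was at 2.93, 10.2 and 24.4 CPM against 18, 23.9 and 28.9 CPM (-1.05 ± 0.32, adjusted p = 0.0148), and Cd63, of lysosomes, fell by 1.27 ± 0.36 (adjusted p = 0.00886). Trem2, a lipid receptor of these macrophages, was at 1.70, 10.3 and 14.6 CPM against 10.2, 12.6 and 24.6 CPM and did not pass (-0.64 ± 0.32, adjusted p = 0.140). Gpnmb was at 6.63, 46.3 and 130 CPM against 45.9, 68.2 and 82.8 CPM (-0.25 ± 0.39, adjusted p = 0.686). All groups of these genes overlapped. The mean of the list ran from -2.35 in combination mouse 3 to 0.22 in combination mouse 2, and the vehicle mice lay between -0.17 and 0.34.

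Markers of resident Kupffer cells moved in the opposite direction where they moved. Of 8 tested, Clec4f, Timd4 and Marco rose and none fell, with a median of 0.95. Clec4f, a lectin specific to Kupffer cells, was at 61.7, 87.5 and 164 CPM against 17.9, 42.4 and 90.3 CPM (0.94 ± 0.32, adjusted p = 0.0275). These rises were fragile. The number rising was 0 without vehicle mouse 2, 4 or 6, and 1 without vehicle mouse 7 or 8 or combination mouse 3 or 5, while 5 rose without vehicle mouse 1. Clec4f had adjusted p-values of 0.0530, 0.0600, 0.0644 and 0.0773 without vehicle mouse 2, 4 or 6 or combination mouse 4. Timd4, a phosphatidylserine receptor, passed over all mice (1.58 ± 0.54, adjusted p = 0.0292) but not without vehicle mouse 2, 4, 6, 7 or 8 or combination mouse 3 or 5 (adjusted p between 0.0512 and 0.0823). Marco, a scavenger receptor, passed as well (2.82 ± 1, adjusted p = 0.0358), but not with the number series as a covariate (adjusted p = 0.0544), nor without vehicle mouse 2, 3, 4, 6, 7 or 8 or combination mouse 3 or 5 (adjusted p between 0.0549 and 0.133).

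Of 17 chemokine receptor genes 4 fell and none rose, with a median of -0.64. Ccr2, which recruits monocytes, was at 2.47, 6.34 and 12.4 CPM against 11.4, 15.1 and 18.9 CPM (-1.22 ± 0.29, adjusted p = 0.00161). Cx3cr1 fell by 0.98 ± 0.31 (adjusted p = 0.0167) and Cxcr4 by 1.02 ± 0.31 (adjusted p = 0.0157). Of 27 chemokine genes 3 fell and 3 rose, with 1 rising without vehicle mouse 6, 1 falling without vehicle mouse 7 and 6 falling without combination mouse 2. Cxcl14, a chemokine of stellate and epithelial cells, was at 1.39, 3.70 and 5.14 CPM against 9.44, 11.7 and 14.2 CPM, without overlap (-1.74 ± 0.28, adjusted p = 8.11e-06). The cytokine gene Tnf was under 1 CPM in every mouse of both groups (0.45 ± 0.54, adjusted p = 0.586). Of 32 innate sensor and cytokine genes 4 fell and 1 rose (0 without combination mouse 3, and 2 without vehicle mouse 5 or combination mouse 2, 4 or 6), with 9 falling without combination mouse 2 and 2 without vehicle mouse 5, 6 or 8 or combination mouse 3, 5, 6 or 8. Tlr5, the flagellin receptor, fell by 1.12 ± 0.18 (adjusted p = 5.17e-06).

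Genes of MHC class II presentation and of the interferon response fell in part. Of 15 genes on the list of MHC class II presentation 7 fell and none rose, with a median of -0.89. H2-Eb1, a class II chain, was at 36.2, 112 and 233 CPM against 154, 242 and 363 CPM (-0.95 ± 0.30, adjusted p = 0.0164), and H2-DMa, which loads peptides, fell by 0.91 ± 0.26 (adjusted p = 0.00903). The number falling was 2 without combination mouse 3, 3 without vehicle mouse 7 or combination mouse 5, and 4 without vehicle mouse 6 or combination mouse 1 or 6. Of 31 interferon-stimulated genes 8 fell and none rose, among them Usp18 by 0.99 ± 0.23 (adjusted p = 0.00165) and Xaf1 by 1.01 ± 0.26 (adjusted p = 0.00312). Of 16 genes on the list of MHC class I presentation 3 rose and 2 fell, with a median of 0.067, and 1 fell without vehicle mouse 5 or 6 or combination mouse 3 or 5. Psmb9, an interferon-induced proteasome subunit on that list, fell by 0.75 ± 0.19 (adjusted p = 0.00299).

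No marker of cholangiocytes (7 tested), T and NK cells (10), neutrophils (5) or mesothelium (3) passed the threshold. Krt19 of bile ducts was at 2.31, 6.37 and 16.4 CPM against 3.27, 11.6 and 16.8 CPM (-0.38 ± 0.68, adjusted p = 0.729), and Cd8a of T cells was at 0.540, 1.43 and 3.25 CPM against 0.841, 1.77 and 3.75 CPM (-0.36 ± 0.47, adjusted p = 0.616). Of 6 markers of B and plasma cells 1 fell and none rose, with a median of -1.45, and between 0 and 4 fell when single mice were left out. Without vehicle mouse 1 or 2 or combination mouse 1, 3, 4 or 7 none of them fell, and without combination mouse 2 the number was 4. Their summed level was 6.17 to 86.4 CPM in the combination mice and 4.88 to 175 CPM in the vehicle mice. Of 5 red blood cell genes 1 fell, and none without vehicle mouse 1, 5 or 8 or combination mouse 1, 2 or 3. Of 10 markers of sinusoidal endothelium 2 fell, and this was 0 without vehicle mouse 6, 7 or 8 or combination mouse 3, 6 or 8, and 1 without vehicle mouse 2, 3 or 4 or combination mouse 1. Stab2, a scavenger receptor of these cells, did not pass (-0.27 ± 0.15, adjusted p = 0.172).

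**Figure D5:**
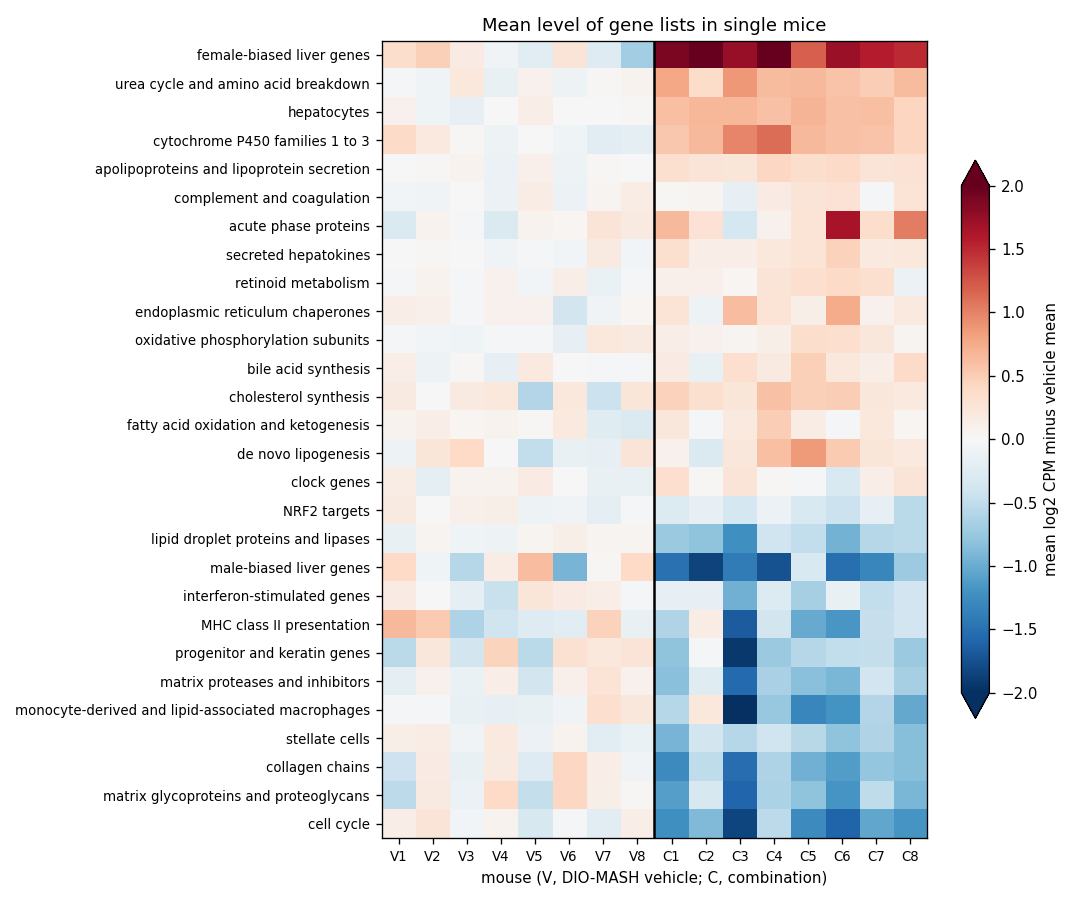
Colors give the mean log2 CPM of 28 gene lists in each of the 16 mice, minus the vehicle mean, from -2 (blue) to 2 (red), with values beyond these limits drawn at the limit. Female-biased genes are high in all 8 combination mice (1.19 to 2.71), and the macrophage list ranges from -2.35 in combination mouse 3 (C3) to 0.22 in mouse 2 (C2).

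The combination was then compared with each of its parts at the same dose, and with high-dose zalfermin, in the same fit. It differed from low-dose zalfermin in 934 genes (6.62% of those tested) and from low-dose semaglutide in 594 (4.21%). The study's methods state that an outlier of the low-dose semaglutide group was left out of its analysis. The labels do not mark that mouse, so the values given here for that group include it. The count for low-dose semaglutide was 298 in a fit of only those groups and 1178 without low-dose semaglutide mouse 6. Both contrasts share the combination mice, and their counts are not independent. Of the 20 female-biased genes tested, 10 were higher than with low-dose zalfermin and 12 higher than with low-dose semaglutide, and none was lower. Cyp2b9 had a mean of 140 CPM in the combination, 10.1 CPM with low-dose zalfermin (difference 3.83 ± 0.78 on the log2 scale, adjusted p = 0.00114) and 21.6 CPM with low-dose semaglutide (2.74 ± 0.73, adjusted p = 0.0199). Cyp4a12a had a mean of 19.8 CPM in the combination, beside 132 CPM (-2.73 ± 0.39, adjusted p = 1.14e-05) and 143 CPM (-2.85 ± 0.40, adjusted p = 4.42e-06).

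Cyp39a1 had a mean of 66.3 CPM in the combination, 27.8 CPM with low-dose zalfermin (1.25 ± 0.14, adjusted p = 4.93e-08) and 26.8 CPM with low-dose semaglutide (1.31 ± 0.14, adjusted p = 8.29e-09). Cidea had a mean of 1.41 CPM, beside 24.6 CPM (-4.01 ± 0.46, adjusted p = 4.93e-08) and 34.5 CPM (-4.50 ± 0.46, adjusted p = 2.29e-09). Of 26 acute phase genes, 8 were higher than with low-dose zalfermin and 10 higher than with low-dose semaglutide. Amino acid breakdown genes were higher in 4 and lower in 1 of 40 cases against low-dose zalfermin, and higher in 14 against low-dose semaglutide.

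Of 34 collagen genes, 9 were lower than with low-dose zalfermin and 7 lower than with low-dose semaglutide. Col3a1 had a mean of 78.5 CPM in the combination, 212 CPM with low-dose zalfermin (-1.43 ± 0.31, adjusted p = 0.00229) and 193 CPM with low-dose semaglutide (-1.30 ± 0.31, adjusted p = 0.00825). Of 30 cell cycle genes, 3 and 1 were lower, where 6.62% and 4.21% of all genes passed in either direction. No macrophage, MHC class II or Kupffer cell marker passed the threshold in either contrast. With such shares over all genes, short lists hold few calls, and this does not show that the groups were alike. Of 19 major urinary protein genes, 12 were lower than with low-dose zalfermin and 1 lower than with low-dose semaglutide.

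Against high-dose zalfermin, 71 genes (0.503%) passed the threshold, a count that was 16 in a fit of only those groups, 176 by DESeq2, and between 13 (without combination mouse 4) and 109 (without combination mouse 2) when single mice were left out. Cyp4a14 had a mean of 1640 CPM in the combination and 653 CPM with high-dose zalfermin (1.33 ± 0.34, adjusted p = 0.0486). Arntl (1.96 ± 0.48, adjusted p = 0.0406), Chka (1.04 ± 0.25, adjusted p = 0.0406) and Cdkn1a (2.07 ± 0.51, adjusted p = 0.0406) were higher in the combination, and within it were highest in mice 4, 5 and 6. Inhbb was lower, with means of 3.28 and 6.74 CPM (-1.03 ± 0.25, adjusted p = 0.0406). No female-biased, male-biased, collagen, cell cycle or amino acid breakdown gene of the lists passed in this contrast, which does not show that the groups were alike. Of 19 major urinary protein genes 1 was lower, and of 47 P450 genes of families 1 to 3, 2 were higher than with high-dose zalfermin. Mean levels of Cyp2b9 were 140 CPM with the combination and 82.7 CPM with high-dose zalfermin, and those of Col3a1 were 78.5 and 86.4 CPM.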

How the data were processed

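Liver RNA of 56 mice in 7 groups had been sequenced, and 16 mice were compared here. Per the authors, stranded mRNA libraries were run on a NextSeq 500 and STAR placed the reads on GRCm38. The submitters' processing notes also name Trim Galore 0.6.4 and Salmon 1.9.0. Which program counted reads on genes, and whether it used strand, is not given in the sources used here, so overlapping genes and close paralogs may share reads. The authors deposited whole read counts per gene, without normalization (21935 genes, 4352 with no read in any mouse). Groups came from the sample labels. Mice are numbered 1 to 8 within a group in accession order, which pairs nothing.

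A gene was kept if at least 3 mice had at least 5 reads (14105 genes). In edgeR 4.0.16 (R 4.3.3), TMM-normalized counts of all 7 groups were fitted together with no term but the group, and p-values of the two-sided quasi-likelihood F test were adjusted by the Benjamini-Hochberg method over all genes kept, with a threshold of 0.05. Spread was thus shared between groups (biological coefficient of variation 22.6%). List means used log2 CPM with a prior count of 2. Principal components used vst of DESeq2 1.42.0. Coordinates are 1-based. Promoters are from RefSeq. Figures were drawn with matplotlib. The depth, a median of 11979097 and 10919819 reads in the compared groups, limits precision under about 1 CPM.

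Named genes were the 12 largest rises and falls among DEGs averaging at least 1 CPM whose groups did not overlap, the 8 DEGs in each direction with the largest CPM difference, the 5 with the smallest p, and for each list its key genes and up to 4 DEGs with the largest changes, some of which are left out. The members, lists and rule were chosen with earlier results of these data known. Alternatives were DESeq2's Wald test, its size factors, no filter, a stricter filter (at least 10 reads in at least 8 mice), a term for the number series, a fit restricted to the groups compared, and leaving out each mouse. In simulated counts with 200 genes changed 2-fold among 14016, edgeR recovered 87.0% with 3.87% false calls and DESeq2 89.5% with 6.77%. The changed genes were drawn from those above 1 CPM in the vehicle mice and took random directions. In the data 20.9% of genes passed, many changed less, and direction went with expression level, so these rates may not hold there. Some genes are not reported here.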

Additional observations from a re-analysis of the deposited data

Results flagged for a closer look

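Of 374 groups of 8 values examined for the named genes, 30 held a highest or lowest mouse far from the rest of its group by Dixon's criterion, where chance gives about 1 in 20, or 19. Values below are log2 CPM of that mouse, and their causes were not tested.

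Combination mouse 3, the mouse with the largest shift on the first principal component, was high for Cyp2c37 (9.87) and low for Fam83a (0.561), Ermp1 (5.14), Fabp4 (2.28), Cyp27a1 (8.58), Hk2 (-0.0957), Mthfd2 (-0.22), Phlda3 (0.771), Cdc20 (-1.65), Cx3cr1 (1.63) and S100a11 (1.63). Combination mouse 6, which also had the highest Saa1, was high for F7 (7.77), Hpd (12.1) and Cyp26a1 (5.97) and low for Ppara (5.66) and Cpt1a (8.38). Combination mouse 4 was high for Cyp2b13 (4.44), Cyp21a1 (-0.468) and Acta2 (3.16). Cyp21a1 was near the limit of detection in this group, so its flag rests on few reads.

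Among the vehicle mice, mouse 7 was low for Pck1 (8.63), Gstm3 (7.07), Nr5a2 (5.47) and Ngfr (1.76) and high for Rbp4 (11.6). Mouse 8 was high for Ebp (7.73) and Slc27a5 (9.79). Mouse 1 was low for Sdcbp2 (1.76) and Col1a1 (6.94), mouse 5 for Pmvk (3.59), and mouse 2 was high for Xaf1 (4.04).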

How the results depend on the processing

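The number of DEGs against DIO-MASH vehicle, 2953, ranged from 2790 without a filter to 3189 by DESeq2 over the alternatives that kept all mice, and from 2344 (without combination mouse 3) to 3294 (without combination mouse 2) when 1 mouse was left out, with 1135 to 1490 rising and 1209 to 1804 falling. Of the DEGs, 2931 were also called by DESeq2 and 2605 in a fit of only these 2 groups. The difference on the first principal component ran from 23.14 to 24.93 with 1 mouse left out, and was 29.87 with 2000 genes and 33.34 on log2 CPM. Against low-dose zalfermin the 934 DEGs ran from 647 to 1149 with 1 mouse left out. Against low-dose semaglutide the 594 became 298 in a fit of only those groups and ran from 397 to 1178. Against high-dose zalfermin the 71 became 176 by DESeq2, 38 without a filter, 130 with the number series as a covariate and 16 in a fit of only those groups, and ran from 13 to 109. The causes were not tested. Of 185 genes that may be named, all 185 kept direction and call under DESeq2, its size factors and no filter, 184 under the stricter filter (the other was not tested) and in the fit of only these groups (Cd36 passed), and 183 with the series covariate (Cpt1a passed, Marco did not). With 1 mouse left out, Clec4f, Marco, Timd4, Hamp and Ppard lost and Cd36 and Cpt1a gained a call in at least 1 fit, and 2 uncalled genes changed sign, Saa1 (from -0.33 to 0.82) and Cdkn1a (from -0.67 to 0.15). No paired analysis was possible because the labels carry no replicate numbers that match a mouse of one group with a mouse of another. The number series could be fitted as a term, with 2938 DEGs, 2677 of them among the 2953. Genes under 1 CPM rest on few reads, and a missing call there says little.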

Other observations

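Enzymes of membrane lipids and of one-carbon and nucleotide synthesis moved in both directions. Of 28 tested phospholipid and sphingolipid genes 4 rose and 4 fell, with 2 falling without vehicle mouse 7 or combination mouse 3, beside 10% and 10.9% of all genes tested. Smpd3, a neutral sphingomyelinase, was at 2.78, 6.86 and 23.2 CPM (lowest, median and highest) in the combination mice and 20.4, 33.2 and 48.5 CPM in the vehicle mice, with an overlap (-1.99 ± 0.43, adjusted p = 0.000616). Of 25 one-carbon and nucleotide synthesis genes 5 rose and 6 fell. Ctps, which makes cytidine triphosphate, was at 4.11, 5.66 and 9.64 CPM against 11, 12.6 and 17.3 CPM, without overlap (-1.12 ± 0.19, adjusted p = 1.64e-05). Mthfd1l, of mitochondrial formate release, fell by 1.12 ± 0.27 (adjusted p = 0.00158). In contrast, Nnmt, which methylates nicotinamide, was at 58.5, 119 and 309 CPM against 26.5, 48 and 75.5 CPM (1.40 ± 0.32, adjusted p = 0.00107).

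Of 29 lysosomal genes 2 rose and 3 fell, with 6 and 5 falling without combination mouse 2 or 4. Of 18 targets of p53, 3 fell and none rose, with 5 falling without combination mouse 4, and Phlda3, one of them, fell by 1.08 ± 0.25 (adjusted p = 0.00146).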
